A study of Mus musculus with 8 samples.

Results

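Nuclear genes of respiratory complex I and of its assembly were taken by name, as every symbol in the count table that starts with Nduf. The table listed 46 such symbols among 28239, of which 38 are subunit symbols (Ndufa, Ndufab, Ndufb, Ndufc, Ndufs, Ndufv) and 8 are assembly factors (Ndufaf). Genes were analysed where they reached at least 2 CPM (the count of a gene scaled to the column total) in at least 4 of the 8 libraries. This left 45 Nduf genes, 37 subunit symbols and all 8 assembly factors, among 12700 genes tested. Each of the 45 reached 2 CPM in all 8 libraries, so none of them passed through a high value in 1 group. Ndufa4l2, a paralog of Ndufa4, had 0 to 3 counts per library and was not tested.

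Complex I (NADH:ubiquinone oxidoreductase) is the entry point of electrons from NADH into the mitochondrial respiratory chain. Its peripheral arm holds the N module, which oxidizes NADH, and the Q module, which reduces ubiquinone. Its membrane arm holds a proximal and a distal pump module that move protons. Core subunits carry out the catalysis and are divided between the nuclear and the mitochondrial genome, accessory subunits surround them, and assembly factors help to build the complex without staying in it. In T cells, activation and differentiation change the demand on this pathway, and Tregs are known for a strong use of mitochondrial respiration.

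The name also takes in genes that do not encode complex I. Ndufa4 was first assigned to complex I and is now counted with complex IV, and Ndufab1-ps is annotated as a processed pseudogene of Ndufab1. The other 35 tested subunit symbols were 7 nuclear core and 28 accessory subunits, with 10 in the N module, 6 in the Q module, 8 in the proximal and 11 in the distal pump module. The 45 tested genes lay on 17 chromosomes of GRCm38.

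The cells were naïve CD4+ T lymphocytes from the spleens of 4 Alox15-/- and 4 WT mice aged 10 to 12 weeks, and the labels give the strain background of all 8 as C57BL/6. Both groups were driven towards Tregs for 2 days in the same medium, which held 5 ng/ml of TGF-β, 100 U/ml of IL-2 and, for each cell, 1 bead coated with antibodies to CD3 and CD28. Alox15 encodes a lipoxygenase that oxygenates polyunsaturated fatty acids, and the sources used here do not state which part of the gene is deleted. For the study as a whole, the methods list Alox15-/- mice from The Jackson Laboratory and C57/Black6 mice from Charles River, and if the latter were the WT animals, genotype and vendor cannot be told apart. RNA was profiled by MACE-seq, which reads transcripts near their 3′ ends, so a CPM is not a value per length and levels were compared only between libraries, not between genes.

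Library totals ran from 3723151 to 9538962 counts, WT replicate 3 being the deepest. Alox15 itself was at 63.4 to 70.2 CPM in the libraries labelled Alox15-/- and at 1.87 to 8.98 CPM in the WT libraries. The targeted gene was therefore higher under the label that names its loss, and 3′ counts outside a deleted part would not check that label. T cell markers were present throughout, with Cd3e at 248 to 294 CPM. Foxp3, the transcription factor of Tregs, was at 71.4 to 113 CPM in Alox15-/- and 92.9 to 194 CPM in WT libraries. Of 7 T cell markers 0 were called, and in 2 the groups did not overlap, as in 5.25% of all genes. Cd4 was lower in Alox15-/- (209 to 296 against 326 to 350 CPM) and Cd3g higher (151 to 169 against 110 to 139 CPM). Genes of other blood cells differed between the groups. Summed erythroid markers (8 genes, 5 of 6 tested called higher) were at 915 to 3504 CPM in the Alox15-/- libraries and at 71.9 to 139 CPM in WT. Mast cell and basophil markers (7 of 7 called higher) were at 110 to 328 against 27.1 to 48.9 CPM, and eosinophil markers (7 genes, 2 of 2 tested called higher) at 21.0 to 73.7 against 1.25 to 10.4 CPM. Myeloid markers (10 genes, 5 of 6 tested) stood at 185 to 479 against 115 to 157 CPM, and NK and gamma-delta T cell markers (9 genes, 6 of 7 tested) at 94.5 to 178 against 33.1 to 54.1 CPM. B cell markers were at 8.91 to 10.2 against 9.98 to 23.8 CPM (1 of 3 tested called lower). CD8 markers were at 12.02 to 21.8 against 21.3 to 31.6 CPM and dendritic cell markers (6 of 7 listed in the count table) at 115 to 212 against 140 to 179 CPM, with 0 called in these 2 lists. No marker listed in the count table was at 0 in every library. Their part in the values of the Nduf genes was not tested. In bulk RNA, fewer cells of a type and less RNA per cell cannot be told apart.

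The first question was whether these genes differed between the libraries labelled Alox15-/- and the WT libraries. By edgeR's quasi-likelihood test, 0 of 45 Nduf genes passed an adjusted p of 0.05, where 1.24% of all genes tested did. At an unadjusted p under 0.05 the count was again 0 of 45, against 7.84% of all genes, and DESeq2 and limma-voom each called 0 of 45 as well. In 0 of 45 genes were the 4 Alox15-/- values apart from the 4 WT values, which held for 5.25% of all genes. The smallest p of the set was 0.0675 for Ndufb10 (edgeR adjusted p = 0.687).

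The intervals show what sizes of change these libraries leave possible. Fitted log2 fold changes (Alox15-/- over WT) ran from -0.17 for Ndufaf4 to 0.40 for Ndufb8, with standard errors from 0.091 to 0.289. The 95% interval lay within 0.5 of 0 on the log2 scale, a change of at most 1.41-fold, for 44 of 45 genes, and all 45 intervals contained 0. Ndufb8 was the exception, with an interval from -0.21 to 1.02 on 12 to 26 counts per library. A change of 1.41-fold or more, up or down, was thus outside the interval of 44 genes, and the sizes of smaller change left possible differ by gene, as each interval shows.

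**Figure D1:**
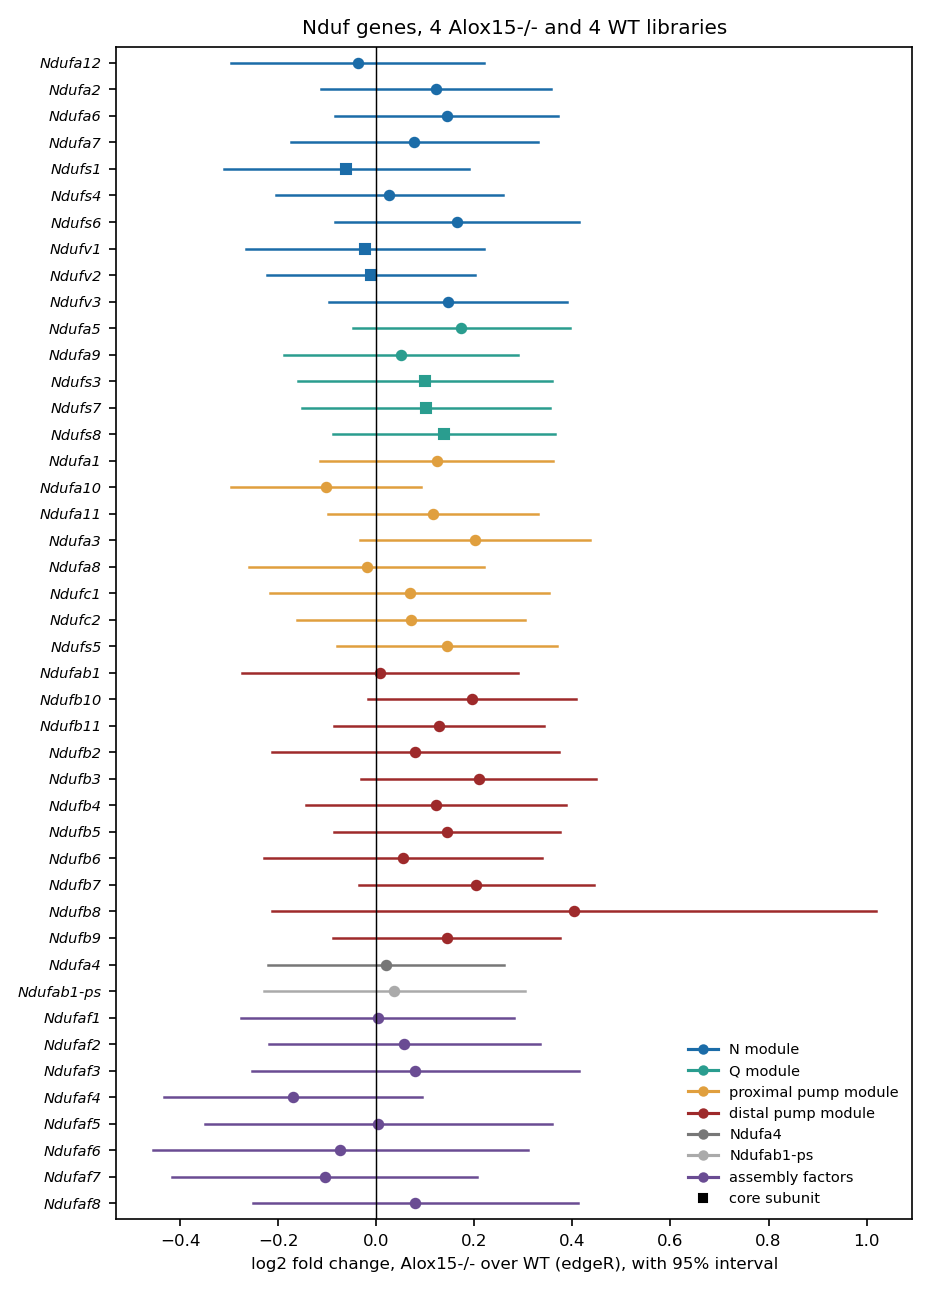
Log2 fold change of 44 of the 45 tested Nduf genes (Alox15-/- over WT, x axis) from edgeR's fit, with its 95% interval as a line, over 4 libraries a group. Genes are ordered and colored by module, squares are core subunits, and all 44 lines cross 0, Ndufb8 having the longest, from -0.21 to 1.02.

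Most of the fitted values were small and positive. Of the 45 genes, 35 had a log2 fold change above 0, where 48.2% of all genes tested did, and the median was 0.08 beside -0.0073 over all genes. Subunits were above 0 for 30 of 37 with a median of 0.10, and assembly factors for 5 of 8 with a median of 0.0037. By position in the complex, the count above 0 was 6 of 10 in the N module (median 0.052), 5 of 6 in the Q module (0.10), 6 of 8 in the proximal pump module (0.093) and 11 of 11 in the distal pump module (0.14). Core subunits were above 0 for 3 of 7 (median -0.011) and accessory subunits for 25 of 28 (median 0.12). These counts describe the direction of values of which none passed the test, and the difference between modules was not tested.

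The count above 0 changed most when either of 2 libraries was left out. Alox15-/- replicate 3 held the highest value of 26 of the 45 genes and the lowest of 0, and WT replicate 3 held the lowest value of 23 genes and the highest of 1 (Ndufs1). Centred on each gene's mean over the 8 libraries, the median log2 level of the 45 genes was -0.13, 0.012, 0.20 and 0.053 in Alox15-/- replicates 1 to 4, and -0.011, 0.098, -0.22 and 0.014 in WT replicates 1 to 4. The span between libraries of 1 group was therefore wider than the difference between the groups. Without Alox15-/- replicate 3, 25 of 45 genes were above 0 with a median of 0.013, and without WT replicate 3, 26 of 45 with a median of 0.014. Without both, 21 of 45 were above 0, the median was -0.036 and 0 Nduf genes were called. Over all genes tested the median was then 0.0031. These 2 were chosen after their values were seen, as the highest Alox15-/- and the lowest WT library. Leaving them out had to lower the difference. Without Alox15-/- replicate 1 or without WT replicate 2, 39 of 45 were above 0 in each case, with medians of 0.13 and 0.12. WT replicate 3 was also the library with the highest total count. Its Foxp3 stood at 194 CPM, beside 109, 101 and 92.9 CPM in WT replicates 1, 2 and 4. The part of depth, or of what sets this library apart in Foxp3, in its low Nduf values was not tested.

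**Figure D2:**
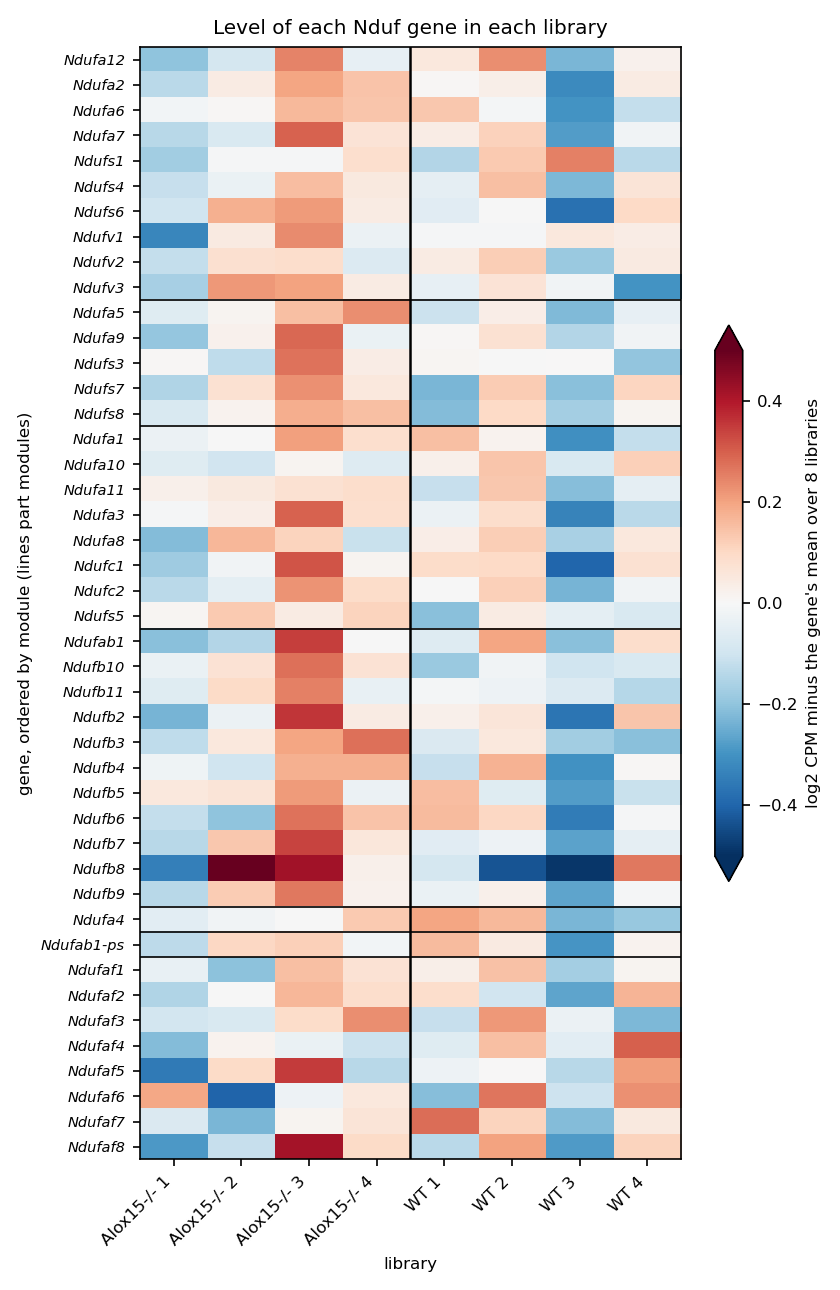
Level of 44 of the 45 tested Nduf genes (rows, ordered by module) in each library (columns), as log2 CPM minus the gene's mean over the 8 libraries, red above and blue below that mean. Alox15-/- replicate 3 is red for most genes and WT replicate 3 blue for most, with Ndufs1 an exception in WT replicate 3.

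As a share of all counts, the subunits took 0.424%, 0.453%, 0.499% and 0.468% in Alox15-/- replicates 1 to 4. In WT replicates 1 to 4 they took 0.445%, 0.472%, 0.406% and 0.442%. The means were 0.461% ± 0.031 and 0.441% ± 0.027 (SD, n = 4 each), and the 2 ranges overlapped, with a difference smaller than either SD. Assembly factors took 0.0206% ± 0.0017 of counts in the Alox15-/- and 0.0211% ± 0.0016 in the WT libraries (SD, n = 4 each).

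In the N module, 3 core subunits carry electrons away from NADH. Ndufv1 binds NADH and the flavin that takes its electrons, and it stood at 94.7, 123, 140 and 116 CPM in Alox15-/- replicates 1 to 4 and at 118, 118, 123 and 122 CPM in WT. The WT values were close together and the Alox15-/- values lay on both sides of them (log2 fold change -0.02, SE 0.114). Ndufv2, an iron-sulfur subunit beside it, was at 188 to 217 CPM in Alox15-/- and 180 to 223 CPM in WT libraries (-0.01, SE 0.0996). Ndufs1, which holds further iron-sulfur clusters, was at 51.2 to 61.3 CPM and 52.2 to 68.8 CPM (-0.06, SE 0.118). Ndufs1 was the only one of the 45 genes with its highest value in WT replicate 3, at 68.8 CPM. The accessory subunits of this module went from -0.04 for Ndufa12 to 0.16 for Ndufs6, and Ndufa2 was at 201, 227, 254 and 244 CPM in Alox15-/- and at 222, 226, 177 and 228 CPM in WT libraries.

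The Q module passes electrons on to ubiquinone through a chain of iron-sulfur clusters. Of its nuclear core subunits, Ndufs7, which holds the last cluster before ubiquinone, was at 89.1 to 116 CPM in Alox15-/- and at 84.5 to 108 CPM in WT libraries (log2 fold change 0.10, SE 0.118). Ndufs8, a further iron-sulfur subunit, was at 117 to 140 CPM and 106 to 132 CPM (0.14, SE 0.106), and Ndufs3, a structural core subunit, at 31.9 to 42.0 CPM and 30.3 to 34.9 CPM (0.10, SE 0.122). The groups overlapped in each of these genes. Among the accessory subunits, Ndufa5 was at 89.4, 93.9, 103 and 109 CPM in Alox15-/- and at 86.4, 95.3, 80.0 and 90.6 CPM in WT libraries (log2 fold change 0.17, SE 0.104, edgeR adjusted p = 0.75). Its 2 highest values were Alox15-/- libraries and the rest overlapped.

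The proximal pump module joins the arms of the complex, and its nuclear subunits are all accessory. Ndufa3 was at 213, 219, 263 and 227 CPM in Alox15-/- replicates 1 to 4 and at 210, 227, 170 and 195 CPM in WT. WT replicate 2 was level with the second highest Alox15-/- value, and the log2 fold change was 0.20 (SE 0.110, edgeR adjusted p = 0.715). Without both libraries numbered 3 it was 0.07. Ndufa10, an accessory subunit on the matrix side, ranged from 200 to 216 CPM in Alox15-/- and from 202 to 235 CPM in WT (-0.10, SE 0.091). Ndufs5, an intermembrane space subunit, was at 45.4 to 49.4 CPM in Alox15-/- and 39.0 to 46.4 CPM in WT (0.14, SE 0.105), and its groups overlapped only through WT replicate 2 at 46.4 CPM, above Alox15-/- replicate 1 at 45.4 CPM.

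The distal pump module, at the far end of the membrane arm, held 3 of the 4 smallest p of the set. Ndufb10 (17:24722060-24724478, minus strand, GRCm38) was at 113, 121, 140 and 121 CPM in Alox15-/- replicates 1 to 4 and at 101, 114, 108 and 109 CPM in WT. A single pair overlapped, WT replicate 2 at 114 and Alox15-/- replicate 1 at 113 CPM, and the log2 fold change was 0.20 (SE 0.099). Ndufb3 was at 70.2, 79.4, 87.9 and 92.7 CPM against 72.8, 79.5, 67.8 and 66.2 CPM (0.21, SE 0.113, edgeR adjusted p = 0.713). Ndufb7 was at 115, 138, 159 and 131 CPM against 121, 124, 105 and 122 CPM (0.20, SE 0.112, edgeR adjusted p = 0.719). In both, 3 Alox15-/- libraries were close to or above the WT values and Alox15-/- replicate 1 lay inside them. All 11 genes of this module were above 0 in the fit of 8 libraries, 8 of 11 without both libraries numbered 3, where the median went from 0.14 to 0.037. Ndufab1, the mitochondrial acyl carrier protein, had the lowest value of the module at 0.0073 (SE 0.132), and Ndufb9 was at 0.14 (SE 0.109).

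Ndufb8 had the largest fitted value, on few reads. Its counts were 12, 21, 26 and 26 in Alox15-/- replicates 1 to 4 and 22, 17, 26 and 21 in WT, which is 2.88 to 5.67 CPM and 2.61 to 4.38 CPM, with overlap (log2 fold change 0.40, SE 0.289, edgeR adjusted p = 0.804). The gene (19:44548572-44555440, minus strand, GRCm38) overlaps Gm20538 on the same strand, over its own last bases, and Gm20538 held 535 to 1253 counts per library. Reads of the 2 genes may not be separable there, and with both summed the log2 fold change was 0.073.

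Several other members share 3′ sequence with a copy elsewhere. Ndufs3 matched the processed pseudogene Gm12251 at 99.6% over 226 bases, and the 2 symbols held 1669 and 1737 counts in all. Ndufab1 matched Ndufab1-ps at 99.6% over 232 bases, with 40.7 counts of the copy for each 100 of Ndufab1. For Ndufb2 and Gm13186 that number was 32.9, for Ndufb11 and Gm6444 18.0, for Ndufa7 and Gm9711 4.6, for Ndufb7 and Gm13171 4.6, and for Ndufa6 and Gm3786 1.2. How reads were divided between such copies is not given in the sources used here, so the level of each is uncertain. With near-identical copies summed, 0 members were called and 34 of 44 were above 0. Genes on the opposite strand overlap the 3′ ends of Ndufa2, Ndufa3, Ndufb2, Ndufb6, Ndufs1, Ndufaf2, Ndufaf3, Ndufab1-ps and the untested Ndufa4l2. Whether the counting used strand is not given in the sources used here.

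**Figure D3:**
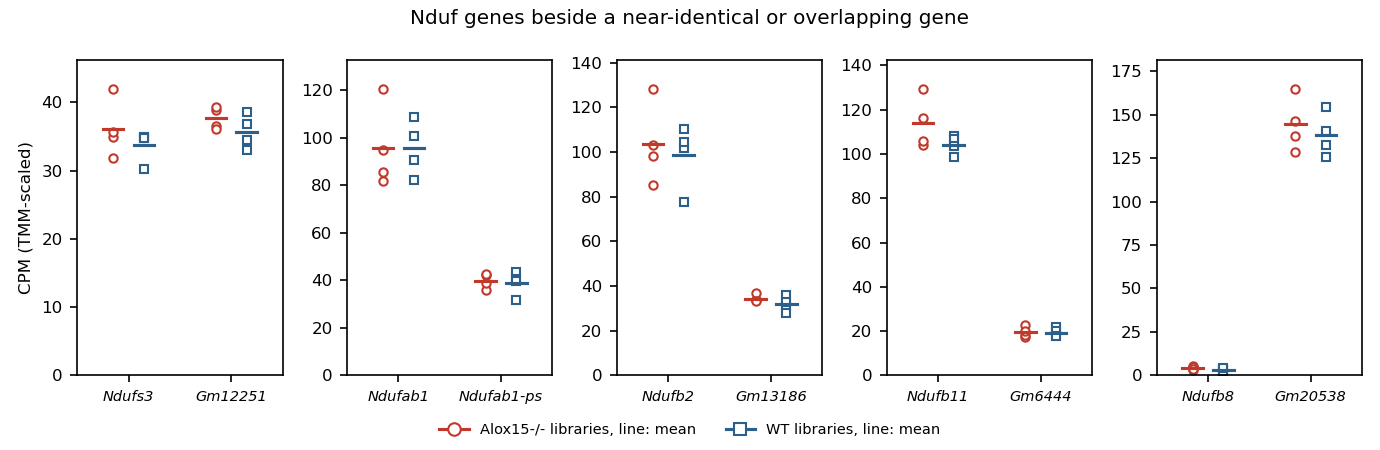
TMM-scaled CPM (y axis, from 0, a separate scale in each panel) of 4 Nduf genes and a near-identical copy, and of Ndufb8 and the overlapping Gm20538, with 1 point per library and lines at the group means. Both groups overlap in every panel, and Gm12251 stands at 33.0 to 39.3 CPM beside Ndufs3 at 30.3 to 42.0 CPM.

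Ndufa4, counted today with complex IV, was at 220, 225, 228 and 250 CPM in Alox15-/- replicates 1 to 4 and at 261, 255, 195 and 200 CPM in WT. The Alox15-/- values lay inside the WT range (log2 fold change 0.02, SE 0.113). Ndufa4l2, known as a gene induced by low oxygen, was at 0, 0, 3 and 2 counts in Alox15-/- and at 1, 0, 2 and 0 counts in WT libraries, at or under a floor of 3 counts per library in both groups, so no fold was computed.

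Assembly factors spread on both sides of 0. Ndufaf1 acts in the complex that builds part of the membrane arm, and it was at 0.0035 (SE 0.131). Ndufaf2, a chaperone of late assembly, was at 0.057 (SE 0.130). Ndufaf3 and Ndufaf4 bind each other in the assembly of the Q module, and their fitted values had opposite signs. Ndufaf3 was at 14.4, 14.6, 16.4 and 18.0 CPM in Alox15-/- against 14.2, 17.8, 15.1 and 13.2 CPM in WT libraries (0.08, SE 0.156). Ndufaf4 was at 30.5, 35.9, 34.6 and 32.9 CPM against 34.0, 39.4, 34.2 and 43.6 CPM (-0.17, SE 0.123, edgeR adjusted p = 0.805). The 2 highest Ndufaf4 values were WT libraries and the others overlapped. Ndufaf5, which modifies an arginine of Ndufs7, was at 0.0039 (SE 0.166), its partner Ndufaf8 at 0.08 (SE 0.155), Ndufaf6 at -0.07 (SE 0.180) and Ndufaf7, an arginine methyltransferase, at -0.11 (SE 0.146). Without both libraries numbered 3, 1 of 8 assembly factors was above 0, with a median of -0.13 and no call.

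The other genes of complex I and of its control were also without a call, but their values did not lean above 0. All 7 mitochondrially encoded complex I subunits were tested, 3 above 0 with a median of -0.022, and 0 were called. Their intervals were wider, with 4 of 7 within 0.5 of 0. The largest fitted value was that of mt-Nd4, a proton-pumping subunit, at 2597, 1886, 2247 and 3547 CPM in Alox15-/- and at 2080, 2105, 2697 and 1588 CPM in WT libraries (log2 fold change 0.28, SE 0.179), and WT replicate 3, low for most nuclear subunits, was the highest WT library for this gene. Of 11 other assembly genes 5 were above 0 and 0 were called. Lyrm2, a LYR-motif protein linked to the assembly of the N module, had the only unadjusted p under 0.05 among these lists, 0.0201, and missed the threshold after adjustment (edgeR adjusted p = 0.494). It was at 20.9, 17.8, 21.6 and 22.5 CPM in Alox15-/- and at 15.1, 19.0, 15.1 and 14.6 CPM in WT libraries, a log2 fold change of 0.38 (SE 0.148), with WT replicate 2 above Alox15-/- replicate 2. Of 12 tested regulators of respiratory chain genes 6 were above 0 and 0 were called, among them Nrf1 at -0.17 (SE 0.104) and Gabpa at 0.13 (SE 0.125), both activators of nuclear respiratory genes.

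Other nuclear genes of mitochondria moved between libraries in the same way. In Alox15-/- replicate 3, the median centred log2 level was 0.21 for the 37 Nduf subunit symbols, which include Ndufa4 and Ndufab1-ps. It was 0.18 for complex III, 0.24 for complex IV, 0.20 for complex V and 0.13 for mitochondrial ribosomal proteins. In WT replicate 3 it was -0.22, -0.13, -0.25, -0.17 and -0.13 in the same order. The Nduf subunit symbols thus stood with the other lists in both libraries. Between the groups, 5 of 10 tested genes of complex III (median 0.038), 13 of 13 of complex IV (0.13), 13 of 21 of complex V (0.060) and 53 of 79 of mitochondrial ribosomal proteins (0.034) were above 0, and 0 were called in each. Without both libraries numbered 3 these counts were 4 of 10, 8 of 13, 8 of 21 and 26 of 79. The difference between the Nduf genes and these lists was not tested.

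**Figure D4:**
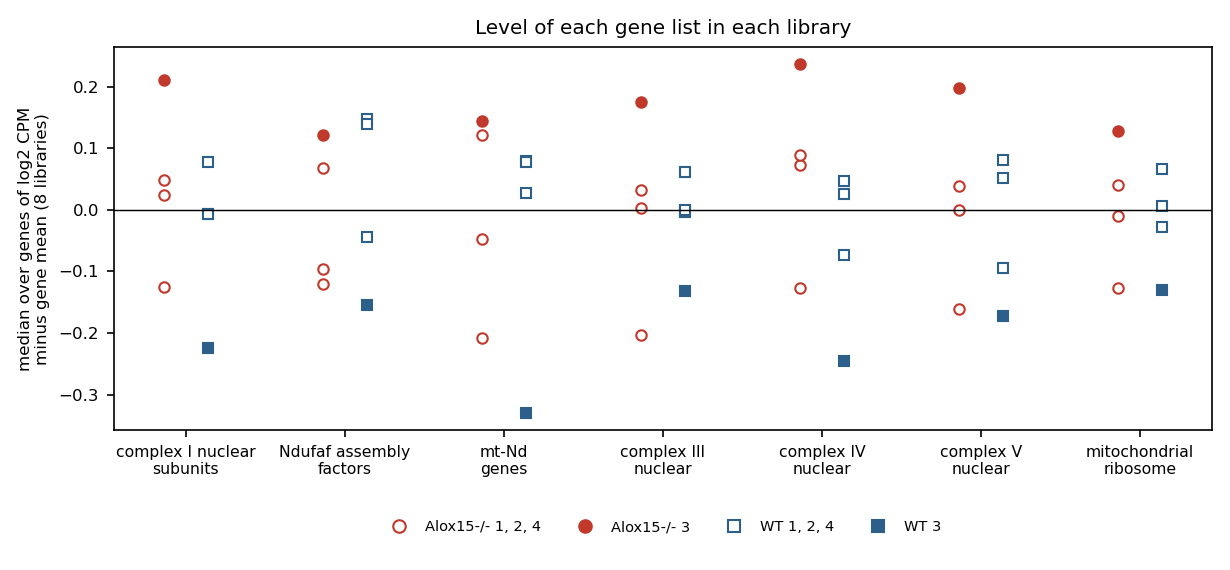
Median over the genes of a list of log2 CPM minus the gene's mean over the 8 libraries (y axis) for 7 lists of mitochondrial genes, with 1 point per library. The list of complex I nuclear subunits holds all 37 tested subunit symbols, Ndufa4 and Ndufab1-ps included. Filled points are the libraries numbered 3, of which Alox15-/- replicate 3 is the highest library in 6 of the 7 lists and WT replicate 3 the lowest in 6 of the 7.

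The promoters of the members were read for letters known from nuclear respiratory genes. RefSeq windows of 250 bases before to 50 after the start (GRCm38.p6) were matched by symbol for 39 of the 45 tested genes. The NRF1 letters GCGCATGCG, searched on both strands, were in 4 of 39 (Ndufa8, Ndufa11, Ndufaf4, Ndufaf5), where 1.95% of 27025 promoters held them. The ETS letters CCGGAA, read by GABP among others, were in 12 of 39, against 16.7% of all promoters, and the YY1 letters AAGATGGC in 8 of 39, against 3.19%. The promoters of all genes include genes not tested in these cells, whereas the 39 were all tested, so the 2 sets are unlike. The stretches around the NRF1 letters upstream of the start are shown for the 3 genes where they lie wholly there, with the matching letters in capitals. The fitted values of these genes had both signs, and the interval of each contained 0.
Ndufa11 (17:56717692-56717721, plus strand): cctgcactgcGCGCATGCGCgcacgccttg
Ndufaf4 (4:24897960-24897989, plus strand): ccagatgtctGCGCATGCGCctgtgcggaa
Ndufa8 (2:36049339-36049357, minus strand): tcgctggagaCGCATGCGC
In Ndufa11 and Ndufaf4 the letters read the same on both strands and end 50 and 103 bases before the start, and in Ndufa8 they end at the start. The log2 fold change of Ndufa11 was 0.12, of Ndufaf4 -0.17 and of Ndufa8 -0.02. Genes with the NRF1 letters were above 0 for 2 of 4 (median -0.0078), with the ETS letters for 10 of 12 (0.075) and with the YY1 letters for 8 of 8 (0.091), beside 35 of 45 for all members. A match is a description of letters in the window and was not tested as a site.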

How the data were processed

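The authors deposited a table of raw counts, 1 per gene symbol and library, not normalized, for 4 Alox15-/- and 4 WT libraries. The methods name MACE-seq, whereas the labels name a small RNA kit of the same company. The submitters' processing notes name Bowtie, edgeR and GRCm38, and versions, the counting tool, strand and duplicate removal are not given in the sources used here. The replicates are separate mice per the labels.

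Genes that reached 2 CPM in 4 or more libraries were tested with edgeR 4.0.16 (R 4.3.3) after TMM scaling, by glmQLFit and glmQLFTest (two-sided, not robust, group as the only term), with Benjamini–Hochberg adjustment over 12700 genes and a threshold of 0.05. The filter and adjustment follow the study's methods. The standard error is the size of the log2 fold change divided by the square root of F, and intervals are at 95%. CPM in the text are TMM-scaled. Intervals of this kind hold both counting error and the spread between libraries, with a biological coefficient of variation of 14.5%. The fit was tested on simulated data.

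The members, modules, partner lists and promoter letters were chosen with earlier results of these data known. Named genes were those past the threshold, nuclear core subunits, assembly factors, Ndufa4 and its relatives, the 5 largest rises and 5 largest falls among subunits, the 5 smallest p, the highest and lowest mean CPM in each module, untested members, and partner genes at an unadjusted p under 0.05. Nrf1, Gabpa, mt-Nd4, Ndufs6, Ndufa11, Ndufa8, Ndufab1 and the copies were named after their values were seen.

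Alternatives were DESeq2 1.42.0 size factors, upper quartile scaling, column totals, edgeR's own filter, no filter, the DESeq2 test, limma-voom (limma 3.58.1), edgeR's robust fit, the replicate number as a block, mitochondrial transcripts left out, each library left out, and copies summed. Leaving out both libraries numbered 3 and summing Ndufb8 with Gm20538 were chosen after seeing the data. Copies were searched in the last 300 bases of transcripts (GENCODE M21, blastn 2.17.0, 90% identity or more across 150 bases or more); 1 member matched over 10 genes and was left out there. Tables were handled with pandas 2.3.3 and figures drawn with matplotlib 3.10.9. Ndufa13, Ndufb1 and Ndufs6b were not analysed here, and 1 tested member is counted in the totals and its values are not reported here.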

Additional observations from a re-analysis of the deposited data

Results flagged for a closer look

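Over 116 groups of 4 libraries examined (each tested member and each list in each genotype), 5 had 1 library far from the other 3, and chance flags about 1 in 20 such groups. The measure is the gap to the nearest library divided by the whole range, set against Dixon's 95% critical value for 4 samples.

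In the WT group, Ndufc1 had a ratio of 0.953, with replicate 3 at 75.5 CPM and the others at 105 to 106 CPM. Ndufa2 had a ratio of 0.903, with WT replicate 3 at 177 CPM beside 222 to 228 CPM, and Ndufb7 a ratio of 0.880, with WT replicate 3 at 105 CPM beside 121 to 124 CPM. The median level of the mitochondrially encoded complex I subunits had a ratio of 0.873, with WT replicate 3 at -0.33 and the others at 0.028 to 0.080 on the centred log2 scale. For Ndufs3, with a ratio of 0.959, WT replicate 4 stood apart at 30.3 CPM beside 34.7 to 34.9 CPM, and this gene matches Gm12251 at 99.6% over 226 of the last 300 bases searched. WT replicate 3, the deepest library, was the one apart in 4 of the 5.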

How the results depend on the processing

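No Nduf gene was called under any alternative, and 35 of 45 above 0 ran from 25 to 39 with 1 library left out and fell to 21 without both libraries numbered 3. With 1 library left out, the median over subunits lay between 0.045 and 0.15, and over assembly factors between -0.064 and 0.061. Over 27 named genes, 503 of 541 fold changes kept their sign, 38 did not, and 16 genes never turned. The other signs turned under upper quartile scaling for Ndufv1 (0.0055) and Ndufv2 (0.017), with column totals only for Ndufaf1 (-0.0097) and Ndufaf5 (-0.013), without a filter for Ndufa4 (-0.00052), Ndufaf1 (-0.017) and Ndufaf5 (-0.018), and with limma-voom for Ndufaf5 (-0.00014). Without both libraries numbered 3 they turned for Ndufa4 (-0.036), Ndufaf1 (-0.10), Ndufaf2 (-0.063), Ndufaf5 (-0.18), Ndufaf8 (-0.14), Ndufs1 (0.025) and Ndufs7 (-0.0071). With 1 library left out, values ran from -0.13 to 0.037 for Ndufa12, -0.045 to 0.092 for Ndufa4, -0.051 to 0.064 for Ndufaf1, -0.017 to 0.13 for Ndufaf2, -0.13 to 0.10 for Ndufaf5, -0.15 to 0.022 for Ndufaf6, -0.061 to 0.18 for Ndufaf8, -0.12 to 0.028 for Ndufs1, -0.11 to 0.071 for Ndufv1 and -0.066 to 0.029 for Ndufv2. The cause was not tested.

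The replicate numbers did not pair the samples (correlations of same-numbered libraries 0.068, 0.17, -0.18 and -0.017), and 1 of 4 numbers matched best with itself. With the replicate block, 0 Nduf genes were called, 33 of 45 were above 0, Ndufaf5 was at -0.0093, and 146 genes were called in all beside 158 without it. Over all genes, 388 were called without a filter and 86 to 173 with 1 library left out. At an unadjusted p under 0.05, Ndufb10 passed under upper quartile scaling, Ndufb10, Ndufb3 and Ndufb7 without Alox15-/- replicate 1, and Ndufa3 without WT replicate 2, none of them after adjustment.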
